A study of Homo sapiens with 6 samples.

Results

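Synaptic vesicle and exocytosis genes encode the proteins that fill, dock, fuse and retrieve the small vesicles with which neurons release transmitter. The 34 genes examined here were chosen by symbol, and each matched 1 row of a table of 23555 genes from IMR-32, a human cell line of neuroblastoma whose genotype the labels give as wild type. The rule then kept genes with at least 1 TPM in at least 3 of 6 libraries, which left 30 of the 34, among 13836 genes in all. TPM is a relative abundance of transcripts, scaled to the same total in each library and divided by transcript length, so levels can be compared between genes. The cells had received the solvent DMSO or PTC-028, a compound used to inhibit the Polycomb protein BMI1, at 25 nM for 24 h, with 3 libraries of poly(A)-selected RNA per group. The question was whether genes of neuronal maturation move together when the compound is given.

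As background, a vesicle is tethered by synapsins, carried to the active zone by Rab3 proteins and scaffolds, primed by UNC13A, and fused when syntaxin, SNAP25 and a vesicle synaptobrevin zip into a SNARE complex. Synaptotagmin senses calcium, complexin holds and then aids the complex, and clathrin adaptors, amphiphysins, dynamin and synaptojanin recover the membrane. Neuroblastoma cells arise from the sympathoadrenal lineage, which releases catecholamines from dense-core vesicles with much of the same machinery. Many of these genes are known targets of REST, a repressor that keeps neuronal genes silent outside neurons.

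None of the 30 tested genes passed at 24 h. The ratios of the PTC-028 mean to the DMSO mean ran from 0.791 to 1.42, and their directions were mixed: 18 had a log2 fold change above 0 and 12 below. The calcium sensor gene SYT1, its relative SYT11, the synapsin gene SYN1 and the vesicle GTPase gene RAB3A were higher in every PTC-028 library than in any DMSO library, whereas the endocytosis gene AMPH and the SNARE gene SNAP25 were lower in every one. They are among the 11 members, 8 above and 3 below, whose groups did not overlap, or 36.7% against 24.0% of all genes tested. The median log2 fold change of the 30 was 0.045, beside 0.031 for all genes tested. The test was limma on log2(TPM + 1) across all 13836 genes, with Benjamini-Hochberg adjustment and a threshold of 0.05.

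The libraries held between 13580 and 14003 genes with at least 1 TPM, and since TPM does not carry the number of reads, the depth behind each value is unknown. All 13 sympathoadrenal markers, HAND2 and MYCN among them, reached the filter. Their summed level was between 2928 and 3052 TPM in DMSO and between 3196 and 3264 TPM in PTC-028. Mesenchymal markers summed to between 666 and 704 TPM in DMSO and between 720.3 and 733 TPM in PTC-028, mostly VIM and TWIST1. The mean of VIM went from 342 TPM in DMSO to 384 TPM in PTC-028, and that of TWIST1 from 289 to 284 TPM. Of the 10 mesenchymal markers 7 reached the filter, FN1 at 11.3 TPM in DMSO among them. COL1A2, COL3A1 and PRRX1 stayed below 1 TPM in every library. Schwann and glial markers summed to at most 11.9 TPM, epithelial markers to at most 1.78 TPM and blood and endothelial markers to at most 7.18 TPM in any library, and these ranges overlapped between the groups. What part the shifts in the sympathoadrenal and mesenchymal sums had in the results was not tested. In bulk RNA, fewer cells of a type and less RNA per cell cannot be told apart. CDKN1A, the p21 gene, which restrains the cell cycle, was at 78.6 ± 1.33 TPM in DMSO and rose to 294 ± 19.1 TPM in PTC-028 (SD over 3 libraries; adjusted p = 1.398e-05 in limma).

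DMSO replicate 2 was often the highest of its group for these genes. It was the highest DMSO library for 19 of the 30, and for 50.4% of all genes tested. Its excess over the mean of DMSO replicates 1 and 3 had a median of 0.13 on the log2 scale for the members and 0.078 for all genes. Without it, 1 of 29 members passed, UNC13A, and the median log2 fold change was 0.10, beside 0.057 for all genes. With all 6 libraries 1.88% of all genes passed, a share from a different fit. The share of all genes that passed as higher without DMSO replicate 2 is not given here. The call of UNC13A is therefore not set against a share of its own fit. Without DMSO replicate 2, 86 of all genes passed as lower, beside 140 with all libraries. DMSO replicate 3 was the lowest of all 6 libraries for 12 of the 30, and for 31.4% of all genes. Without it 6 members changed sign (SNAP91, SYP, SV2C, SYNGR3, SYT4 and CPLX1), and without DMSO replicate 2 there were 2 (SYNJ1 and RIMS2). Transcript length moved with DMSO replicate 2, as described further on.

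In DMSO the levels spanned from 188 TPM to under 1 TPM. The tested members had a median of 19.4 TPM, against 17.4 TPM for all genes tested. There were 21 members at a mean of 10 TPM or more, 9 between 1 and 10, and 4 below 1. Summed over all 34, the mean was 944 TPM in DMSO, and CPLX2 alone supplied 19.9% of it. Summed over the tested members, the DMSO libraries gave 918, 993 and 918 TPM and the PTC-028 libraries 987, 949.9 and 956 TPM, so the groups overlapped.

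The order of the leading genes in DMSO was CPLX2, SCAMP5, SYT1, SYP, CPLX1, SYNGR1, STX1A, SYN2, SV2A and VAMP2. CPLX2 stood 2.10 times above SCAMP5 with no overlap between their libraries. SYT1 and SYP overlapped, as did the neighbours from CPLX1 through SYNGR1 and STX1A to SYN2. Of the 33 neighbouring pairs in the whole order, 21 overlapped in DMSO. The 4 members left out were RAB27B, a GTPase of secretory granules, RIMS1, SV2B and SNCG. The highest value of any of them was 0.782 TPM, for RAB27B, whereas SYNGR3 just reached the filter with 1.52, 1.32 and 1.05 TPM in 3 libraries. SNCG was listed at 0 in 3 libraries.

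**Figure D1:**
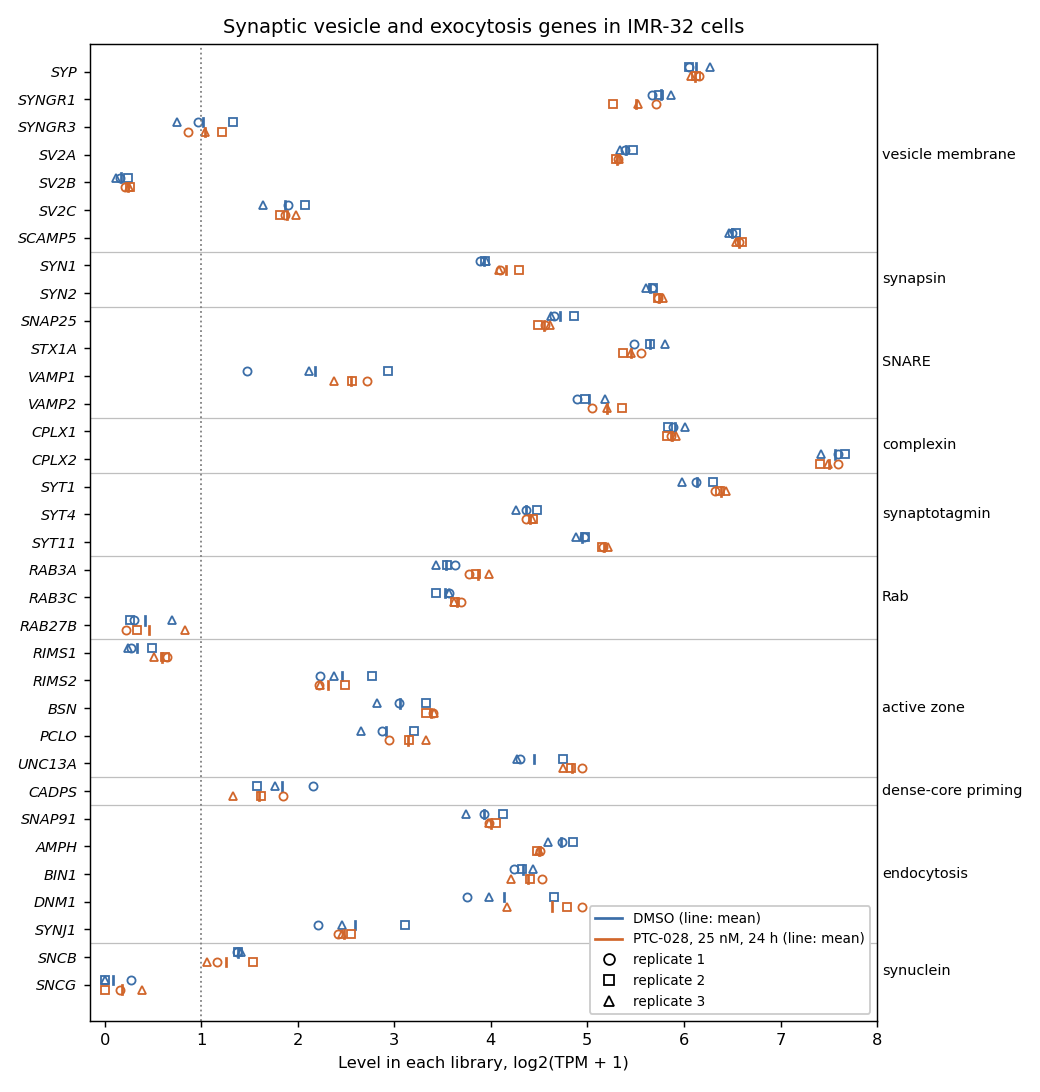
Level of each of the 34 genes on a log2(TPM + 1) axis, with 1 symbol per library (circle, square and triangle for replicates 1, 2 and 3), DMSO in blue and PTC-028 in orange, and a short line at each group's mean of the log2 values; the dotted line marks 1 TPM. CPLX2 lies far right, RAB27B, RIMS1, SV2B and SNCG lie left of the dotted line, and in most rows the blue and orange symbols interleave.

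Promoters are shown for 4 members, none of which passed with all libraries. SYN1 and UNC13A carry letters of RE1, the element that REST reads, and SYT11 and RAB3A had the smallest p-values of the members. Each run is RefSeq sequence of GRCh38.p14, 5′ to 3′ on the gene's strand, from 250 bases before to 50 bases after the annotated start. The windows are chrX:47619808-47620107 for SYN1, chr19:17688305-17688604 for UNC13A and chr19:18203993-18204292 for RAB3A, all on the minus strand, and chr1:155859317-155859616 for SYT11 on the plus strand. Capitals mark matches to the motifs searched, on either strand.
SYN1: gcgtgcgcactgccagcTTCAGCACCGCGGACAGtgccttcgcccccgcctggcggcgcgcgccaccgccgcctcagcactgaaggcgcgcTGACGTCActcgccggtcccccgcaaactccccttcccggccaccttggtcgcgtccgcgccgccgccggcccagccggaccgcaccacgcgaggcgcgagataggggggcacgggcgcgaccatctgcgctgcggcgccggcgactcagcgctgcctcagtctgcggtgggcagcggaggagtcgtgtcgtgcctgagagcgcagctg
UNC13A: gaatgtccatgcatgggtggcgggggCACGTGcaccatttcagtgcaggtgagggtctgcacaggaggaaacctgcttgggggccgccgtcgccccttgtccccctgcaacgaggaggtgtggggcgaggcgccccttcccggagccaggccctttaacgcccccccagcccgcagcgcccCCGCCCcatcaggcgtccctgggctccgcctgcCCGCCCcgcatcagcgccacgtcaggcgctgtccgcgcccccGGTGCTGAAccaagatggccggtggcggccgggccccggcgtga
SYT11: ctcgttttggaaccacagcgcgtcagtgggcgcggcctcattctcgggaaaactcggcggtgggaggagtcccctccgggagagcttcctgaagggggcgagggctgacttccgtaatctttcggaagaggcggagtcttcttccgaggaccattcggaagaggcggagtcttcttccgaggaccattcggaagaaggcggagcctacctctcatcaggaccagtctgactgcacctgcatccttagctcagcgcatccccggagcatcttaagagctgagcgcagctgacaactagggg
RAB3A: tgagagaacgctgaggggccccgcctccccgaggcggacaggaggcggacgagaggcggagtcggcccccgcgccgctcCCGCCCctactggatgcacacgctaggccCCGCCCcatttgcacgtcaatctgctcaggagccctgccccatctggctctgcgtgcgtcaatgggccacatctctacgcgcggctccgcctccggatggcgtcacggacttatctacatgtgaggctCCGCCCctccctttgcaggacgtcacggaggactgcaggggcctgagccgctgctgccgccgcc

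Searched were the RE1 core, which SYN1 holds as CAGCACCGCGGACAG and whose central pair of letters GC was left free, the left arm of RE1 TTCAGCACC, the cAMP response element TGACGTCA, the E-box CACGTG that MYC family proteins read, and the GC box GGGCGG. In SYN1 the capitals are an RE1 core, starting at position -231 from the start and overlapping the left arm of RE1 at -233, and a cAMP response element at -159. In UNC13A they are an E-box at -224, GC boxes at -69 and -36, and the left arm of RE1 at position 7 after the start, on the opposite strand. In RAB3A they are 3 GC boxes, and SYT11 has no match. A promoter sequence was at hand for 30 of the 34 members and for 27305 genes in all. The RE1 core was present in 1 of the 30 members and in 0.0586% of all genes, and the left arm in 2 of the 30 and in 0.469%. Among tested genes with a promoter sequence these 2 shares were 0.0813% and 0.417%. The cAMP response element and the E-box were each present in 1 of the 30, beside 2.25% and 8.77% of all genes. Among tested genes with a promoter sequence they were present in 3.93% and 12.9%. The GC box was present in 23 of the 30, beside 48.3% of all genes and 78.1% of the tested genes with a promoter sequence. Matches are a description of letters and not of bound sites. Median GC content was 69.6% for the members, which ranged from 37.3% to 81.2%, and 65.0% for tested genes.

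REST itself was expressed at 9.34, 11.2 and 6.98 TPM in DMSO and at 9.82, 12.1 and 11.3 TPM in PTC-028. The groups overlapped, and REST did not pass at 0.27 ± 0.16 on the log2 scale (SE from limma, n = 3 each, adjusted p = 0.438 in limma). BMI1 mRNA had a log2 fold change of -0.070 ± 0.086 (SE; adjusted p = 0.716 in limma). Of 20 tested genes for REST and its corepressors, none passed, with a median of 0.086. SIN3B, a scaffold of histone deacetylase complexes, was at 0.25 and RCOR2, a partner of the demethylase KDM1A, at 0.14 (adjusted p = 0.162 and 0.285 in limma).

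Across the comparison of PTC-028 with DMSO, 0 of the 30 members passed in limma, and 1.88% of all genes tested did, 0.867% higher and 1.01% lower. At an unadjusted p under 0.05 there were 6 members, 5 higher and 1 lower, that is 20.0% against 17.3% of all genes, 9.88% higher and 7.44% lower. Groups did not overlap for 11 members, 8 above and 3 below, or 36.7% against 24.0% of all genes. Split by direction, 13.4% of all genes lay above and 10.6% below. The share of members with a fold change above 0 was 60.0%, and that of all genes was 57.5%. The middle of the members' log2 fold changes, from the lower to the upper quartile, ran from -0.11 to 0.23, and that of all genes from -0.084 to 0.16. Adjusted p-values of the members ran from 0.131 to 0.97.

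How large a change the data leave room for differed between members. The 95% confidence interval of the log2 fold change lay within 0.5 of 0 for 18 of the 30 and within 1 of 0 for 28. The exceptions to the latter were DNM1 and VAMP1, which had the largest standard errors of the 30. Without adjustment, 5 intervals lay above 0 and 1 below. A p that misses the threshold does not show that a gene kept its level.

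**Figure D2:**
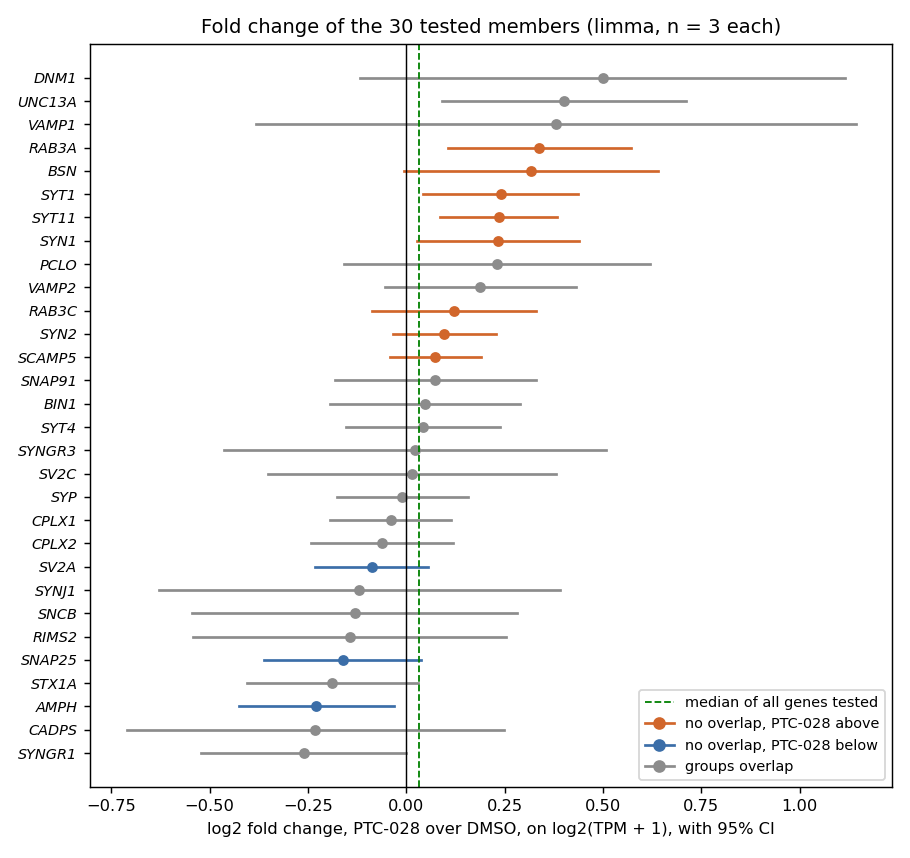
Log2 fold change of PTC-028 over DMSO on the log2(TPM + 1) scale for the 30 tested members, sorted, with 95% confidence intervals from limma (n = 3 each); orange and blue mark genes whose groups did not overlap, grey those that did, and the dashed line is the median of all genes tested. Points spread to both sides of 0, with 8 orange and 3 blue, and DNM1 and VAMP1 have intervals that pass 1.

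**Figure D3:**
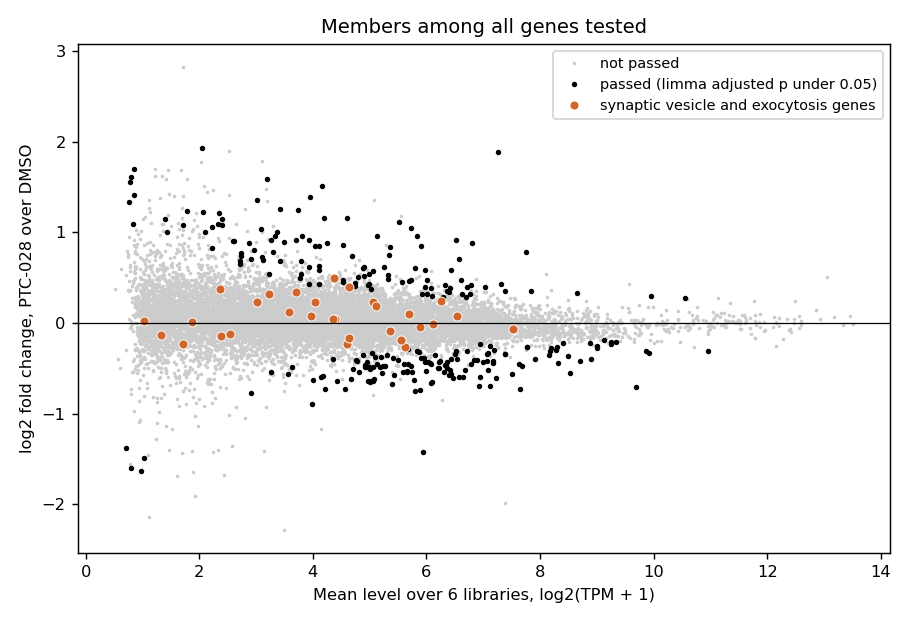
Log2 fold change against mean log2(TPM + 1) over the 6 libraries for the 13836 genes tested, with genes that passed in black and the members in orange. The members lie inside the grey cloud of genes that did not pass, between -0.26 and 0.50.

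Proteins of the vesicle membrane came first in the order of roles. SYP, which encodes synaptophysin, the classic marker of small synaptic vesicles, had 65.4, 65.5 and 76.0 TPM in DMSO and 70.1, 68.9 and 66.2 TPM in PTC-028. All 3 treated libraries lay between the lowest and highest DMSO libraries. The log2 fold change of SYP was -0.0097 ± 0.072 (SE from limma, n = 3 each, adjusted p = 0.960 in limma). SCAMP5, a secretory carrier membrane protein, had 89.4, 91.8 and 87.3 TPM in DMSO and 94.3, 96.2 and 92.2 TPM in PTC-028. Its groups were close but did not overlap, at 0.074 ± 0.050 (adjusted p = 0.484 in limma). SV2A, the vesicle glycoprotein that binds the drug levetiracetam, had 41.0, 43.2 and 39.5 TPM in DMSO and 38.7, 38.3 and 39.1 TPM in PTC-028. Every treated library lay just below every control, at -0.088 ± 0.062 (adjusted p = 0.508 in limma). SYNGR1, a synaptogyrin of the vesicle membrane, had 49.9, 52.5 and 57.4 TPM in DMSO and 51.2, 37.5 and 44.9 TPM in PTC-028. Its PTC-028 replicate 1 lay among the controls and the other 2 below them, and its -0.26 ± 0.11 was the lowest log2 fold change of the 30 (adjusted p = 0.288 in limma). The paralogues SV2C and SYNGR3 were low, with means of 2.69 ± 0.544 and 1.05 ± 0.426 TPM in DMSO (SD, n = 3), and their groups overlapped. SV2B was at most 0.199 TPM in any library.

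Synapsins tether vesicles to each other and to actin. SYN1, on chromosome X at 47571898 to 47619943 (GRCh38), had 13.8, 14.3 and 14.4 TPM in DMSO and 16.1, 18.6 and 16.0 TPM in PTC-028. The controls lay within 1 TPM of each other and all treated libraries above them. Yet at 0.23 ± 0.089 on the log2 scale SYN1 did not pass (SE from limma, n = 3 each, adjusted p = 0.241 in limma). SYN2 was more abundant, with 49.7, 50.3 and 47.6 TPM in DMSO and 52.0, 52.0 and 54.0 TPM in PTC-028. Its groups did not overlap either, at 0.097 ± 0.057 (adjusted p = 0.419 in limma). The ratio of SYN2 to SYN1 was 3.47 ± 0.157 in DMSO and 3.13 ± 0.302 in PTC-028 (SD, n = 3 each), and the groups overlapped. Exons of SYN1 share 23 bases with ARAF and those of SYN2 170 with TIMP4, both on the opposite strand.

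None of the 4 SNARE genes passed. STX1A, the syntaxin of the plasma membrane, had 43.6, 49.3 and 54.7 TPM in DMSO and 45.9, 40.2 and 42.7 TPM in PTC-028, with overlap of the groups (-0.19 ± 0.094; adjusted p = 0.352 in limma). SNAP25, on chromosome 20 at 10218830 to 10307418, had 24.2, 27.98 and 23.7 TPM in DMSO and 22.5, 21.5 and 23.4 TPM in PTC-028. No treated library reached a control, though the gap was small (-0.16 ± 0.087; adjusted p = 0.379 in limma). The vesicle SNARE gene VAMP2 was measured with 28.8, 30.4 and 35.2 TPM in DMSO and 32.1, 40.0 and 35.9 TPM in PTC-028, overlapping (0.19 ± 0.10; adjusted p = 0.395 in limma). The ratio of STX1A to SNAP25 was 1.96 ± 0.307 in DMSO and 1.91 ± 0.113 in PTC-028 (SD, n = 3 each). VAMP1, a paralogue of VAMP2, had the widest control spread of the tested members relative to its mean, with 1.78, 6.66 and 3.32 TPM in DMSO and 5.60, 4.92 and 4.19 TPM in PTC-028. DMSO replicate 2 was its highest library of all. Its log2 fold change was 0.38 ± 0.33 with all libraries (adjusted p = 0.592 in limma), 0.76 without DMSO replicate 2 and 0.030 without DMSO replicate 1. STX1A shares 662 exonic bases with BUD23, at 125 TPM in DMSO, and VAMP1 shares 339 with TAPBPL, both on the opposite strand. VAMP2 shares 430 with AC129492.3, at 10.4 TPM in DMSO, on the same strand. Among all members, 9 share exonic bases with another measured gene, DNM1 (CIZ1) and SCAMP5 (RPP25) included. The counting's use of strand is not given in the sources used here.

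Complexins bind the assembled SNARE complex. CPLX2 had 193, 202 and 169.7 TPM in DMSO and 193, 169 and 179 TPM in PTC-028, and CPLX1 had 58.1, 56.1 and 63.6 TPM in DMSO and 57.3, 55.7 and 59.7 TPM in PTC-028. Both overlapped between the groups, at -0.062 ± 0.078 and -0.040 ± 0.067 (SE, n = 3 each; adjusted p = 0.724 and 0.797 in limma). The ratio of CPLX2 to CPLX1 was 3.20 ± 0.482 in DMSO and 3.13 ± 0.207 in PTC-028 (SD, n = 3 each).

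Of the 3 synaptotagmins, SYT1 and SYT11 lay above their controls in every library and SYT4 did not. SYT1, the calcium sensor for fast release, on chromosome 12 at 78863993 to 79452008, had 69.0, 78.1 and 62.3 TPM in DMSO and 79.1, 82.0 and 85.8 TPM in PTC-028. DMSO replicate 2 came close to the treated libraries without reaching them, and the log2 fold change was 0.24 ± 0.085 (SE, n = 3 each; adjusted p = 0.213 in limma). SYT11, a synaptotagmin that does not bind calcium, on chromosome 1 at 155859509 to 155885199, had 30.3, 30.3 and 28.5 TPM in DMSO and 34.7, 34.6 and 36.1 TPM in PTC-028. It had the smallest p-value of the members, with tight groups that stood clear of each other. Its mean went from 29.7 ± 1.05 to 35.2 ± 0.852 TPM (SD), 0.23 ± 0.064 on the log2 scale (SE; adjusted p = 0.131 in limma, and between 0.128 and 0.342 with any 1 library left out). SYT4 overlapped, with 19.6, 21.3 and 18.1 TPM in DMSO and 19.6, 20.7 and 20.6 TPM in PTC-028, and its 0.043 ± 0.085 changed sign under quantile normalisation and without DMSO replicate 3. The ratio of SYT1 to SYT4 was 3.54 ± 0.111 in DMSO and 4.06 ± 0.106 in PTC-028 without overlap, whereas that of SYT1 to SYT11 was 2.34 ± 0.204 and 2.34 ± 0.0546 (SD, n = 3 each).

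Rab3 proteins bring vesicles to release sites. RAB3A, on chromosome 19 at 18196784 to 18204074, had 11.3, 10.6 and 9.76 TPM in DMSO and 12.7, 13.4 and 14.8 TPM in PTC-028. All treated libraries lay above all controls, with means of 10.6 ± 0.782 and 13.6 ± 1.09 TPM (SD, n = 3 each). At 0.34 ± 0.10 on the log2 scale it did not pass (SE; adjusted p = 0.153 in limma) and lay between 0.28 and 0.39 with any 1 library left out. RAB3A shares 165 exonic bases with MPV17L2 on the opposite strand, a gene whose log2 fold change was -0.15 ± 0.081. RAB3C, at a like level, had 10.9, 9.80 and 10.9 TPM in DMSO and 11.9, 11.4 and 11.2 TPM in PTC-028, close but without overlap (0.12 ± 0.090; adjusted p = 0.530 in limma). Its direction turned to -0.011 after correction of each library for transcript length.

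Active zone genes encode large scaffolds and priming factors. UNC13A, which opens syntaxin so that the SNARE complex can form, on chromosome 19 at 17601328 to 17688365, had 18.8, 25.9 and 18.3 TPM in DMSO and 29.9, 27.5 and 25.9 TPM in PTC-028. DMSO replicate 2 lay a hair above the lowest treated library, and the other controls lay well below. The log2 fold change was 0.40 ± 0.13 (SE, n = 3 each; adjusted p = 0.188 in limma), and without DMSO replicate 2 it was 0.56 with a limma adjusted p of 0.0408, the only call of a member in any alternative. BSN, which encodes the scaffold bassoon, had 7.30, 9.02 and 6.04 TPM in DMSO and 9.58, 9.06 and 9.63 TPM in PTC-028, without overlap by a narrow margin (0.32 ± 0.14; adjusted p = 0.295 in limma). PCLO, its relative piccolo, had 6.32, 8.22 and 5.29 TPM in DMSO and 6.70, 7.87 and 9.04 TPM in PTC-028, with overlap (0.23 ± 0.17; adjusted p = 0.522 in limma). In each of these 3 genes DMSO replicate 2 was the highest control. RIMS2, a scaffold that binds Rab3, had 3.69, 5.83 and 4.18 TPM in DMSO and 3.67, 4.62 and 3.70 TPM in PTC-028, on the lower side at -0.14 ± 0.17. It turned to 0.013 without DMSO replicate 2. The ratio of UNC13A to RIMS2 was 4.64 ± 0.390 in DMSO and 7.04 ± 1.09 in PTC-028 without overlap (SD, n = 3 each). Of 12 such ratios within families or complexes, the groups overlapped for 10, those of AMPH to BIN1, PCLO to BSN and RAB3C to RAB3A among them, and did not for 2, this one and that of SYT1 to SYT4. RIMS1 was below the filter, with 0.207, 0.407 and 0.181 TPM in DMSO and 0.564, 0.544 and 0.423 TPM in PTC-028. CADPS, a priming factor of dense-core vesicles, had 3.45, 1.99 and 2.39 TPM in DMSO and 2.59, 2.08 and 1.52 TPM in PTC-028, overlapping (-0.23 ± 0.21; adjusted p = 0.606 in limma).

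Genes of vesicle endocytosis were mixed. AMPH, which encodes the membrane-bending protein amphiphysin, on chromosome 7 at 38383704 to 38631567, had 25.6, 27.9 and 23.1 TPM in DMSO and 21.8, 21.2 and 21.7 TPM in PTC-028. The treated libraries lay close together below every control, and the mean went from 25.5 ± 2.41 to 21.6 ± 0.303 TPM (SD, n = 3 each). At -0.23 ± 0.085 on the log2 scale it did not pass (SE; adjusted p = 0.229 in limma, and between 0.126 and 0.432 with any 1 library left out). BIN1, its more widely expressed paralogue, overlapped with 17.9, 19.0 and 20.6 TPM in DMSO and 22.1, 20.2 and 17.5 TPM in PTC-028. DNM1, the dynamin that pinches vesicles off the membrane, had 12.5, 24.2 and 14.8 TPM in DMSO and 29.7, 26.7 and 16.9 TPM in PTC-028. The spread within each group was about as large as the gap between the means, so the members' largest log2 fold change, 0.50 ± 0.27, did not pass (adjusted p = 0.379 in limma). With any 1 library left out it ran from 0.31, without DMSO replicate 1, to 0.76, without DMSO replicate 2. SYNJ1, a phosphatase that strips the clathrin coat from vesicles, had 3.63, 7.62 and 4.51 TPM in DMSO and 4.34, 4.85 and 4.49 TPM in PTC-028. Its direction was set by DMSO replicate 2, with -0.12 ± 0.22 in all libraries and 0.14 without that one. SNAP91, a clathrin assembly protein, overlapped with 14.2, 16.4 and 12.4 TPM in DMSO and 14.8, 15.6 and 14.7 TPM in PTC-028.

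Synucleins, soluble proteins that bind vesicle membranes, were scarce among the members. SNCB had 1.59, 1.60 and 1.65 TPM in DMSO and 1.24, 1.91 and 1.08 TPM in PTC-028, with treated libraries on either side of the controls. SNCG was at most 0.305 TPM in any library.

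Transcript length moved with both DMSO replicate 2 and the fold change. The longest coding transcript in GENCODE 29 had a median of 4250.5 bases for the 30 members and 3447 for the 12414 tested genes with a length, and 7 members were over 7000 bases. Across the 12414 genes, Spearman's rho of length with the excess of DMSO replicate 2 over the other controls was 0.45, and that of length with the log2 fold change was 0.30. These describe genes of the same 6 libraries, which are not independent replicates. Across the 30 members the same values were 0.37 and 0.21. In the fifth of genes with the longest transcripts, 5858 bases or more, the median log2 fold change was 0.12, the same as for the 7 members in it. In the fifth with the shortest, up to 1956 bases, it was -0.046. RAB3A, among the shortest with 1528 bases, had a log2 fold change of 0.34, while UNC13A, BSN and PCLO were among the longest with 9838, 15955 and 20329 bases. After a correction of each library for transcript length, a step chosen after seeing the data, the members' median was 0.011 beside 0.0037 for all genes, and again 0 of 30 passed. The same correction took the log2 fold change of PCLO from 0.23 to 0.042, that of BSN from 0.32 to 0.14 and that of UNC13A from 0.40 to 0.26. It took those of RIMS2 from -0.14 to -0.26 and of SYNJ1 from -0.12 to -0.22, while RAB3A went from 0.34 to 0.38. SYT11 went from 0.23 to 0.16 and SYT1 from 0.24 to 0.18. After the correction RAB3A, and no longer SYT11, had the smallest p-value of the members.

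**Figure D4:**
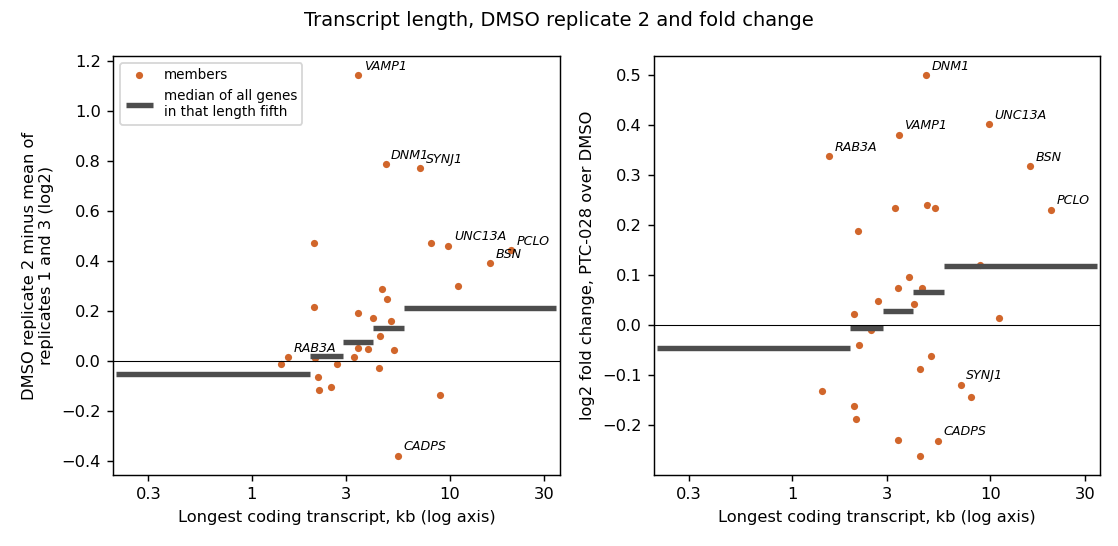
Longest coding transcript in kb (log axis) for the 30 tested members in orange, against the log2 difference of DMSO replicate 2 from the mean of DMSO replicates 1 and 3 (left) and against the log2 fold change of PTC-028 over DMSO (right); grey bars give the median of all tested genes in 5 equal bins of length. The grey bars climb from left to right in both panels, and VAMP1, DNM1 and SYNJ1 lie highest in the left panel.

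Other genes of the same pathway did not pass either. Of 53 further tested genes of the release machinery, none passed in limma, with a median log2 fold change of 0.099 and 37 above 0. There were 9 at an unadjusted limma p under 0.05, all higher. Of all genes tested, 17.3% had such a p, 9.88% higher and 7.44% lower, and 57.5% were above 0. Of 24 further vesicle membrane, transporter and proton pump genes none passed, with 8 above 0 and a median of -0.014. ATP6V1D, a subunit of the pump that acidifies vesicles, was at -0.28 and SCAMP1 at 0.28 (adjusted p = 0.203 and 0.207 in limma). Of 26 further endocytosis genes none passed, with a median of 0.042 and 1 higher and 1 lower at an unadjusted p under 0.05. FCHO2, an early factor of clathrin pits, went from 4.86 ± 0.465 to 7.99 ± 0.855 TPM without overlap (SD, n = 3 each), 0.62 ± 0.12 on the log2 scale, and just missed (SE; adjusted p = 0.0551 in limma). It passed with a minimum TPM of 5 (adjusted p = 0.0435 in limma), with rows of 1 symbol summed (0.0489) and after the length correction (0.0307). SH3GL1 was at -0.13 (adjusted p = 0.287 in limma).

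Neighbouring neuronal gene lists are set beside the 1.88% of all genes that passed. Of 30 tested genes of neuron differentiation and axon growth, 1 rose, 24 had a log2 fold change above 0 and the median was 0.18, beside 0.031 for all genes. At an unadjusted limma p under 0.05, 11 of them were higher and 2 lower, beside 9.88% and 7.44% of all genes tested. NEFL, the light neurofilament chain, rose from 13.1 ± 0.246 to 20.1 ± 1.35 TPM (SD, n = 3 each), a log2 difference of 0.58 ± 0.083 (SE; adjusted p = 0.0160 in limma), and missed the threshold when DMSO replicate 1, PTC-028 replicate 2 or PTC-028 replicate 3 was left out (at most 0.0917). RBFOX3, the neuronal splicing factor known as NeuN, was at 0.41 ± 0.11 (adjusted p = 0.119 in limma). Of 20 tested postsynaptic genes 1 rose, with 16 above 0 and a median of 0.15. There were 6 higher and 1 lower at an unadjusted limma p under 0.05. The gene that rose was ARC, an activity-induced gene, at 0.96 ± 0.17 (adjusted p = 0.0387 in limma). Leaving out DMSO replicate 1 or 3, or a single PTC-028 library, ended the call of ARC, with adjusted p up to 0.149, and leaving out DMSO replicate 2 did not. Of 13 tested dense-core vesicle genes none passed, with 10 above 0 and a median of 0.16. At an unadjusted limma p under 0.05, 5 were higher and 1 lower, beside 9.88% and 7.44% of all genes tested. PTPRN and VGF, a granule membrane protein and a secreted neuropeptide precursor, were at 0.28 ± 0.069 and 0.35 ± 0.086 (adjusted p = 0.0970 and 0.0992 in limma). Of the 13 sympathoadrenal markers, 10 had a log2 fold change above 0 and 3 below, with a median of 0.082. There were 5 higher and 1 lower at an unadjusted limma p under 0.05. In this list 1 of 13 rose, GATA3 at 0.35 ± 0.054 (adjusted p = 0.0211 in limma). It missed the threshold when DMSO replicate 1 or a single PTC-028 library was left out (at most 0.0887). CHGA followed at 0.24 ± 0.063 (adjusted p = 0.122 in limma), and passed without DMSO replicate 3 at 0.30 (adjusted p = 0.0289 in limma). The differences between these lists were not tested.

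**Figure D5:**
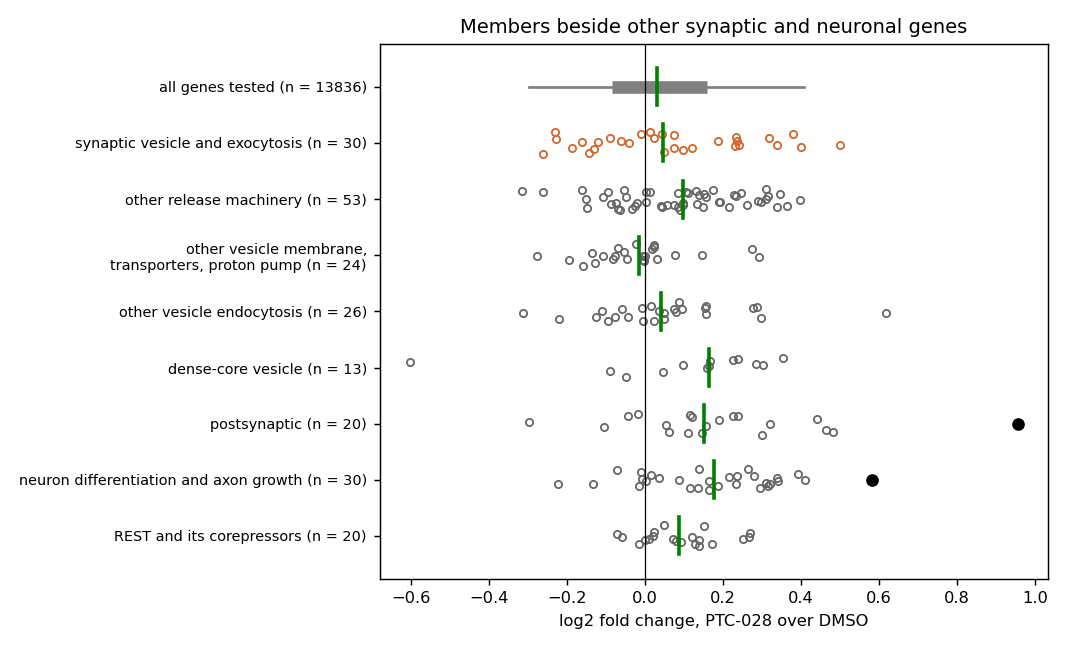
Log2 fold change of PTC-028 over DMSO for the members and for 7 other lists of synaptic and neuronal genes, 1 circle per tested gene, with filled black circles for genes that passed and green lines at medians; for all genes tested the thick bar spans the quartiles and the thin line the 5th to 95th percentiles. The members spread to both sides of 0 around a median of 0.045, and the only black circles are ARC and NEFL.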

How the data were processed

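RNA was taken from IMR-32 cells after 24 h with DMSO or PTC-028, with 3 libraries per group, and the authors deposited 1 table of TPM per gene, used as deposited. Per the submitters' processing notes, GRCh38 was used. No aligner, quantifier or annotation is named (not given in the sources used here). Read depth cannot be had from TPM. The labels do not say that replicates are separate cultures, so the p-values measure only how these libraries spread, which could be technical.

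The members and lists were chosen with earlier results of these data known. Genes with at least 1 TPM in at least 3 of 6 libraries were compared on log2(TPM + 1), a pseudocount of 1, by limma 3.58.1 (R 4.3.3). The model held treatment alone, and its eBayes step used the mean-variance trend. The SE of each log2 fold change is the moderated one of that step, which draws on all genes tested. Tests were 2-sided, with Benjamini-Hochberg adjustment over 13836 genes and a threshold of 0.05. Fold changes on this scale understate changes of low genes. The procedure was tested on simulated data. Named genes are all members, REST, BMI1, CDKN1A, and from each other list the genes that passed, up to 4, or the 2 with the smallest p where fewer than 2 passed. Some genes that this rule would name are not reported here. A symbol with several rows was read from the row with the highest mean. KRT5, CD3E and HBB of the marker lists are not among the gene symbols of the deposited data, so the marker sums leave them out. Gene positions and lengths come from GENCODE 29 by identifier, which matched 22507 of 23555 rows and all 34 members. Alternatives were pseudocounts of 0.1 and 5, no filter, a minimum of 5 TPM, median ratio scaling, quantile normalisation, eBayes without a trend, a replicate block, rows of 1 symbol summed, and each library left out, plus a correction for transcript length added after seeing the data.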

Additional observations from a re-analysis of the deposited data

How the results depend on the processing

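The count of members that passed was 0 under each alternative except without DMSO replicate 2, where it was 1, UNC13A. Their median log2 fold change ran from 6.9e-05 under quantile normalisation to 0.10 without DMSO replicate 2. The count of all genes that passed, 260, was 138 with no filter on low values, 131 with eBayes without a trend and 429 after the correction for transcript length, and ran from 74 to 226 with any 1 library left out. Replicates of the same number did not deviate together (correlations of 0.0298, -0.0262 and -0.0975), beside -0.0594 to 0.0775 for different numbers. These values gave no sign of pairing, but they cannot show how the samples were prepared. With the replicate block 62 genes passed, among them no member, and the calls of NEFL, ARC and GATA3 were lost. The calls of ARC and GATA3 were also lost with no filter and with eBayes without a trend. The causes were not tested.

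Of 470 values of members under alternatives, 449 kept their direction and side of the threshold, 1 newly passed and 20 changed sign, in 10 members. Under quantile normalisation the log2 fold change was 0.0011 for SYP, -0.075 for SV2C, -0.067 for SYNGR3, -0.0079 for SYT4 and -0.00092 for BIN1. SV2C was at -0.013 under median ratio scaling and at -0.14 after the length correction, where RAB3C was at -0.011. With any 1 library left out, SYNGR3 ran from -0.11 to 0.11, SYNJ1 from -0.31 to 0.14, RIMS2 from -0.26 to 0.013, SNAP91 from -0.021 to 0.17, SYP from -0.045 to 0.061, SV2C from -0.10 to 0.11, SYT4 from -0.013 to 0.10, CPLX1 from -0.078 to 0.011 and BIN1 from -0.027 to 0.14. ERBB3, a glial marker, reached the filter in 3 of these fits and ran from -0.55 to 0.23.

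TPM keeps no depth, so no counting error is given, and 3 libraries per group limit what can be told apart.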
